A study of Mus musculus with 9 samples.

Results

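The cyclins and cyclin-dependent kinases that carry a cell from G1 into S phase and on to mitosis were followed in mouse T cell lymphomas. The 10 genes are the D cyclins Ccnd1, Ccnd2 and Ccnd3, the E cyclins Ccne1 and Ccne2, the A and B cyclins Ccna2 and Ccnb1, and the kinases Cdk2, Cdk4 and Cdk6. They were taken by gene symbol from a table of 46078 genes, and each symbol matched 1 row. Read counts from transcript 3′ ends were available for 6 lymphomas and 3 control libraries. The lymphomas were MYCN-induced T cell tumours taken from the thymus and are called here by their label numbers, 34, 53, 56, 70, 72 and 86. The controls, called CD4 1, 2 and 3, were CD4+ T cells from the spleen, and all animals were of the C57BL/6J strain. The promoter that drives MYCN, the age of the animals and whether CD4 preparations were pooled are not given in the sources used here. No treatment is given for either group.

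In the cell cycle of mammals, D cyclins are made in response to growth signals and bind Cdk4 or Cdk6, and these complexes begin the phosphorylation of the retinoblastoma protein. Cyclin E with Cdk2 completes that step and opens S phase, cyclin A2 then serves Cdk2 and Cdk1 through S and G2, and cyclin B1 with Cdk1 drives mitosis. T cells are known for their use of Ccnd2, Ccnd3 and Cdk6. MYCN belongs to the MYC family of transcription factors, which bind the DNA letters CACGTG, called an E-box. The question put to the data was which D and E cyclins and which of their kinases the lymphomas carried, compared with CD4 cells.

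Of the 10 genes, 7 rose in lymphoma, 1 fell and 2 did not pass the test. The rises were Cdk4, Cdk6, Cdk2, Ccne1, Ccne2, Ccna2 and Ccnb1, the fall was Ccnd3, and the genes that did not pass were Ccnd1 and Ccnd2. A gene was called with an adjusted p under 0.05 by the quasi-likelihood test of edgeR, the Benjamini-Hochberg adjustment running over the 15401 tested genes. Among all tested genes 46.6% were called, with 24.7% higher and 21.9% lower in lymphoma. The median log2 fold change, lymphoma over CD4, was 2.33 over the 10 genes and 0.04 over all tested genes. The libraries of the groups did not overlap for 9 of the 10 genes, with lymphoma above for 7 and CD4 above for 2, Ccnd2 and Ccnd3. Such separation was found for 44.9% of tested genes, with lymphoma above for 22.6% and CD4 above for 22.3%. Levels are given as CPM, counts per 1000000 of the library size after TMM scaling, the trimmed mean method of edgeR, and SE is the standard error of a log2 fold change.

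**Figure D1:**
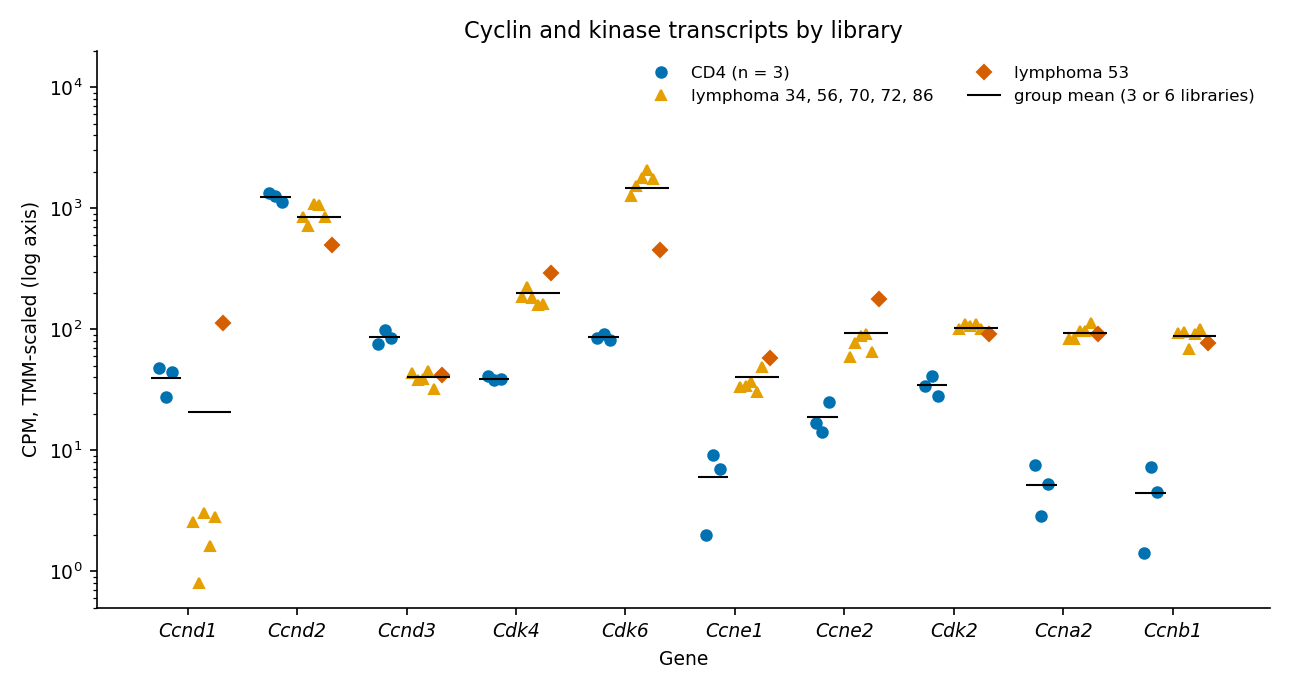
Expression of the 10 genes in each library, in CPM on a log axis, with CD4 as circles, lymphomas as triangles, lymphoma 53 as a diamond and group means as bars. The 7 genes from Cdk4 to Ccnb1 lie higher in every lymphoma than in any CD4 library, and Ccnd1 in lymphoma 53 stands at 114 CPM against 0.8003 to 3.06 CPM in the other 5 lymphomas.

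The libraries held 11170704 to 15769679 gene counts in lymphoma and 8099960 to 10808828 in CD4, and a floor of 3 counts, the most that a count of 0 allows, corresponded to at most 0.370 CPM. Lymphoma 53 stood apart. It was the highest or the lowest of the 6 lymphomas at 61.8% of tested genes, against 22% to 33.7% for each of the others. It held that place for 7 of the 10 genes. Its library also had the fewest gene counts of the lymphomas, 11170704 against 14403821 to 15769679 in the others. Reads in genes made up 38.7% of its reads, against 43.6% to 49.1% in the others. Reads left ambiguous between genes made up 5.07%, against 3.74% to 4.11%. The part of these library differences in its values was not tested. Lymphomas 34, 70 and 72 shared a T cell receptor segment, Trbv12-1, which made up 66 of 84, 45 of 73 and 47 of 87 Trbv counts. In CD4 1, 2 and 3 it made up 15 of 112, 7 of 40 and 7 of 100. Lymphoma 53 had 9 Trbv counts and lymphomas 56 and 86 had 0, too few to judge sharing there. Whether lymphomas 34, 70 and 72 arose separately is not stated, so the tests were repeated with these 3 libraries averaged. All were also repeated without lymphoma 53. Nothing in the labels says which libraries came from separate animals, so p-values measure the spread between these libraries. Mycn, the driver, reached 3 counts at most in the lymphomas and 6 in CD4, so these counts do not check the labels. Xist was at 493.1 to 582 CPM in CD4 and at most 11.3 CPM in lymphoma, and the Y-linked Ddx3y was at 119 to 178 CPM in lymphoma and at most 0.734 CPM in CD4. Sex, tissue of origin and group cannot be told apart in this design.

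Markers of T cells were present in both groups, at 1430 to 2029 CPM summed over 9 genes in lymphoma and 2420 to 2595 CPM in CD4, and 2 of the 9 fell, Cd4 and Cd28. Cd4 itself was at 62.6, 13.8, 6.04, 48.6, 71.9 and 9.02 CPM in lymphomas 34, 53, 56, 70, 72 and 86. Markers of B cells summed to 8.05 to 13.0 CPM in lymphoma and 1099 to 1370 CPM in CD4, and all 10 fell. Myeloid markers summed to 944 CPM in lymphoma 34, 2173 CPM in lymphoma 56, 60.0 to 221 CPM in the other lymphomas and 780 to 1005 CPM in CD4, and 4 of 10 fell. Markers of plasmacytoid dendritic cells summed to 13.9 to 44.3 CPM against 167 to 190 CPM, and 4 of 5 fell. The 7 erythroid markers in the table ranged from 10.04 to 756 CPM in sum against 89.6 to 297 CPM, with none called. Stromal and endothelial markers summed to 79.4 to 152 CPM against 216 to 238 CPM, with 1 higher and 2 lower of 6 tested. Thymic epithelial markers summed to 17.8 to 60.9 CPM against 4.92 to 14.95 CPM, with 1 higher of 2 tested. Krt5, Krt8 and Foxn1 were at 0 in all CD4 libraries and had at most 10 counts in any lymphoma, where Krt8 and Foxn1 were at 0 in 4 of 6. The part of these cells in the results that follow was not tested. In bulk RNA, fewer cells of a type and less RNA per cell cannot be told apart.

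The D cyclins were examined first. None of the 3 rose: Ccnd3 fell, Ccnd2 lay lower in every lymphoma but missed the threshold, and Ccnd1 was low in 5 lymphomas, at 11 to 50 counts, and high in 1. Summed over the 3 genes, D cyclin transcripts came to 901 ± 189 CPM in lymphoma against 1365 ± 92.6 CPM in CD4 (SD, n = 6 and 3).

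Ccnd1 (chr7:144929931-144939925 on GRCm38, minus strand) encodes cyclin D1, the D cyclin of many epithelial tissues. It was at 2.58, 114, 0.8003, 3.06, 1.64 and 2.82 CPM in lymphomas 34, 53, 56, 70, 72 and 86, and stood at 47.7, 27.6 and 44.3 CPM in CD4 1, 2 and 3. The raw counts behind these values were 40, 1244, 11, 50, 25 and 39 in lymphoma and 500, 230 and 483 in CD4. Lymphoma 53 lay above every CD4 library and the other 5 lymphomas lay below them all. With all libraries the log2 fold change was -0.95 (SE 1.504, adjusted p 0.642 in edgeR). Without lymphoma 53 it was -4.19, with an edgeR adjusted p of 2.76e-06, and limma voom on all libraries gave -3.50 with an adjusted p of 0.0029. The adjusted p ran from 2.76e-06 to 0.854 over the alternatives, so the call for Ccnd1 turned on 1 library and on the model.

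In lymphoma 53 the CD8 genes Cd8a and Cd8b1 were at 29.4 and 47.6 CPM, against at most 1.53 and 0.735 CPM in the other lymphomas, and at 25.6 to 31.8 and 35.9 to 44.9 CPM in CD4. Its stromal and endothelial markers summed to 152 CPM, the highest of the lymphomas and below every CD4 library, and 81.3 CPM of that sum was Pecam1 and 33.4 CPM was Col1a1. Col1a2, Col3a1 and Dcn were each higher in at least 1 other lymphoma. Its plasmacytoid dendritic cell markers summed to 44.3 CPM, again the highest of the lymphomas and below every CD4 library, and Bst2 made up 22.7 CPM of it and Cox6a2 16.4 CPM. The defining marker Siglech was at 0.0913 CPM in lymphoma 53 and Klk1 was at 0. Its B cell markers, at 8.13 CPM, were within the range of the other lymphomas. Whether cells with these markers carry its Ccnd1 was not tested.

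Ccnd2 (chr6:127125162-127152193, minus strand) encodes cyclin D2, which T cells induce on antigen stimulation. It was at 840.1, 495, 715, 1075, 1071 and 848 CPM in lymphomas 34, 53, 56, 70, 72 and 86. In CD4 1, 2 and 3 it was at 1326, 1256 and 1136 CPM. Every lymphoma lay below every CD4 library, with lymphoma 53 the lowest. Means were 841 ± 221 CPM in lymphoma against 1239 ± 95.8 CPM in CD4 (SD, n = 6 and 3), and the log2 fold change was -0.56 (SE 0.216, adjusted p 0.0507 in edgeR). In 9 of 17 alternative analyses the adjusted p fell under 0.05, among them the fit without lymphoma 53 (-0.45, adjusted p 0.0227) and the fit without lymphoma 72 (-0.65, adjusted p 0.0307). Over all alternatives the log2 fold change lay between -0.67 and -0.45 and the adjusted p between 0.0227 and 0.171.

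Ccnd3 (chr17:47505051-47599691, plus strand) encodes cyclin D3, which is required for the expansion of immature thymocytes. It was at 43.3, 42.2, 38.4, 39.0, 44.8 and 32.3 CPM in lymphomas 34, 53, 56, 70, 72 and 86. CD4 cells had 75.6, 97.8 and 85.3 CPM. The groups did not overlap, and lymphoma 53 lay inside the range of the other lymphomas. The mean was 40.0 ± 4.53 CPM in lymphoma against 86.2 ± 11.1 CPM in CD4 (SD, n = 6 and 3), a log2 fold change of -1.11 (SE 0.157, adjusted p 0.000148 in edgeR). A processed copy, Ccnd3-ps, is 96.3% identical to Ccnd3 over 881 bases, so reads from the shared stretch could be lost or moved. It had at most 4 counts in any library.

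Shares within the D cyclins show the same data without scaling between libraries. Counts from 3′ ends were not corrected for transcript length, so shares were compared between libraries and not between genes. Ccnd2 held 94.8% to 96.2% of D cyclin counts in the 5 lymphomas other than 53 and 89.8% to 91.5% in CD4. In lymphoma 53 it held 76.1% (Wilson 95% interval 75.1 to 77.0%) of 7127 counts. The share of Ccnd1 there was 17.5% (16.6 to 18.4%), against 0.106% to 0.319% in the other lymphomas and 1.998% to 3.50% in CD4. The log2 ratio of Ccnd2 to Ccnd3 counts was 4.35 ± 0.455 (SD, n = 6) in lymphoma and 3.85 ± 0.246 (SD, n = 3) in CD4. This difference of 0.50 did not pass an exact two-sided permutation test over the 84 assignments of the libraries (p = 0.167, adjusted p = 0.25 over 3 ratios, smallest p possible 0.0238). The lowest ratio of all, 3.55, was that of lymphoma 53, and without it the difference was 0.66 with an exact permutation p of 0.0357 (adjusted p 0.0536, up to 0.429 over the alternatives). That p is the smallest that 5 against 3 libraries can give, so the adjusted p could be under 0.05 only if all 3 ratios reached it.

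**Figure D2:**
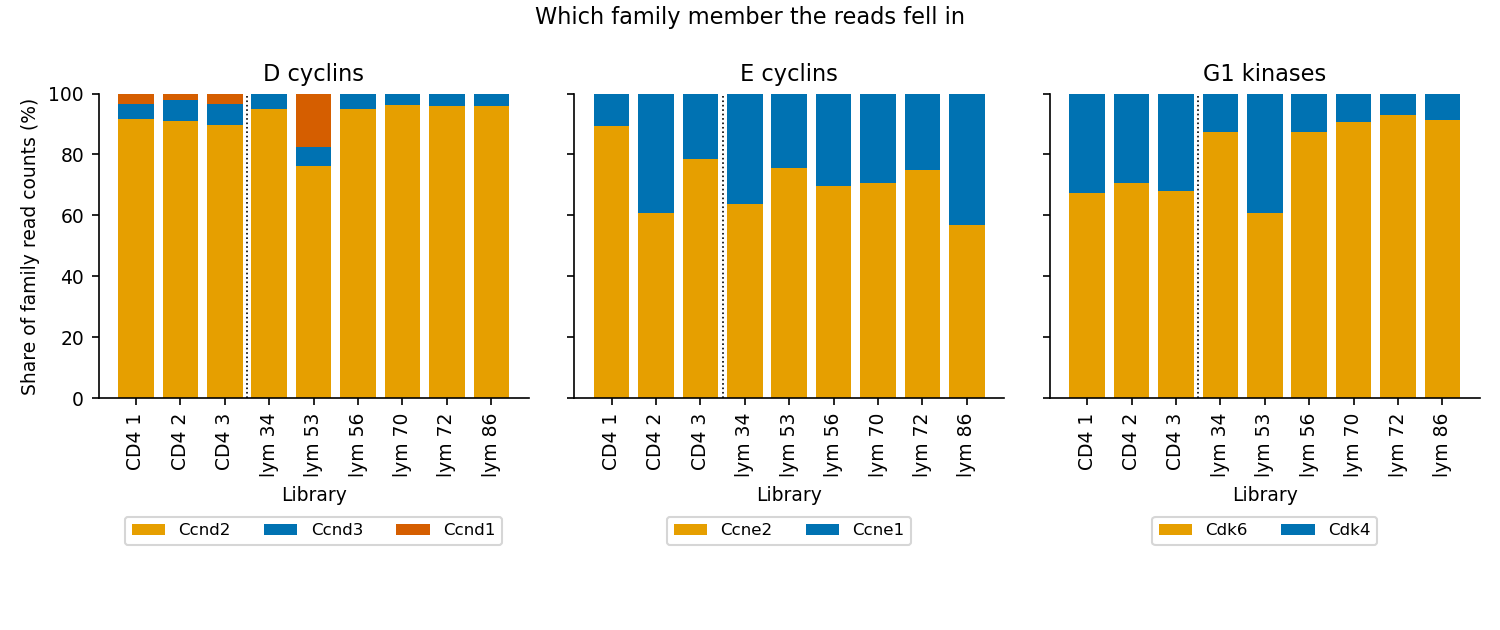
Share of read counts (percent) that fell in each member of the D cyclins, the E cyclins and the G1 kinases Cdk4 and Cdk6, 1 stacked bar per library. Lymphoma 53 has the largest Ccnd1 share (17.5%) and the smallest Cdk6 share (60.9%) of all 9 libraries.

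The kinases that D cyclins bind both rose. Cdk6 (chr5:3341485-3531008, plus strand) is the D cyclin kinase most used by blood cells. It was at 1261, 453, 1516, 1778, 2065 and 1737 CPM in lymphomas 34, 53, 56, 70, 72 and 86. Values in CD4 were 85.1, 91.7 and 81.4 CPM. Lymphoma 53 was the lowest lymphoma and still lay above every CD4 library. The mean was 1468 ± 566 CPM in lymphoma against 86.1 ± 5.21 CPM in CD4 (SD, n = 6 and 3), a 17.1-fold rise (log2 fold change 4.09, SE 0.441, adjusted p 2.69e-05 in edgeR). A total of 481 of the 15401 tested genes had a larger log2 fold change than Cdk6.

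Cdk4 (chr10:127063534-127067920, plus strand) is the other D cyclin kinase and a long-known MYC target in several cell types. It was at 185, 291, 222, 181, 159 and 162 CPM in lymphomas 34, 53, 56, 70, 72 and 86. CD4 1, 2 and 3 had 40.9, 38.0 and 38.5 CPM. Here lymphoma 53 was the highest. The mean was 200.05 ± 49.95 CPM in lymphoma against 39.2 ± 1.55 CPM in CD4 (SD, n = 6 and 3), a 5.11-fold rise (log2 fold change 2.35, SE 0.227, adjusted p 8.92e-06 in edgeR). The kinases together came to 1668 ± 520 CPM in lymphoma and 125 ± 4.96 CPM in CD4. The summed CPM of the D cyclins they bind was lower in lymphoma than in CD4. Neither sum was tested, and Ccnd2, which held most D cyclin counts, had an adjusted p of 0.0507 in edgeR.

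The balance between the kinases separated lymphoma 53 from the rest. The log2 ratio of Cdk6 to Cdk4 counts was 2.77, 0.64, 2.77, 3.29, 3.70 and 3.42 in lymphomas 34, 53, 56, 70, 72 and 86. It was 1.06, 1.27 and 1.08 in CD4. In 5 lymphomas the ratio lay above every CD4 library, and in lymphoma 53 it lay below them all. The difference of the means, 1.63, did not pass an exact two-sided permutation test (p = 0.0952, adjusted p = 0.25 over 3 ratios). Without lymphoma 53 it was 2.06, and the exact permutation p was 0.0357, again the smallest possible (adjusted p 0.0536, up to 0.429 over the alternatives). Cdk6 accordingly held 87.2% to 92.8% of Cdk4 and Cdk6 counts in 5 lymphomas, 60.9% (Wilson 95% interval 59.8 to 62.0%) in lymphoma 53 and 67.5% to 70.7% in CD4.

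The stretch before the transcription start of these kinases was read because the label names a MYC family factor as the driver. RefSeq sequences on GRCm38.p6, covering 250 bases before the start, matched 6 of the 10 genes (Ccnd3, Ccne1, Ccnb1, Cdk2, Cdk4 and Cdk6). The E-box CACGTG, which reads the same on both strands, was found 4 times before Cdk4, beginning 172, 118, 98 and 11 bases upstream, and once before Cdk6, beginning 220 bases upstream. The RefSeq start used for Cdk6 lies inside the gene span given above, whose first base belongs to another transcript in GENCODE. It was not found in the windows of Ccnd3, Ccne1, Ccnb1 or Cdk2. Of 32851 mouse promoter windows of this length, 6.02% held at least 1 CACGTG and 0.0213% (7 windows) held 4 or more. The E2F letters TTTCCCGC or TTTGGCGC, searched on both strands, were found once, on the reverse strand before Cdk2 and beginning 140 bases upstream, and 1.3% of windows held either. The windows that held a match are shown 5′ to 3′ on the gene's strand with the matched letters in capitals, whole for Cdk4 and with 11 bases on each side of the match for Cdk6 and Cdk2. A match is a string of letters in the reference, and binding was not measured.
Cdk4, chr10:127063285-127063534, plus strand: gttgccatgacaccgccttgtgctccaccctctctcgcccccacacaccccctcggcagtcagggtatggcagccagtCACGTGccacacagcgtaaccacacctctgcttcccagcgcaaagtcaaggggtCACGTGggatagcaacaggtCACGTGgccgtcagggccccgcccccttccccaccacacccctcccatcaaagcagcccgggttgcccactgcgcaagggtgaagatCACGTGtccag
Cdk6, chr5:3343662-3343689, plus strand: ttctgcggcccCACGTGggtgaaccccc
Cdk2, chr10:128705173-128705202, minus strand: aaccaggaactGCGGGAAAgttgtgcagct

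Both E cyclins rose, and neither rose detectably more than the other. Ccne1 (chr7:38097984-38107534, minus strand), cyclin E1, was at 33.5, 58.4, 33.7, 36.6, 30.5 and 48.9 CPM in lymphomas 34, 53, 56, 70, 72 and 86. In CD4 it stood at 2.004, 9.24 and 6.97 CPM. The groups did not overlap, and lymphoma 53 was the highest. The mean was 40.3 ± 10.96 CPM in lymphoma against 6.07 ± 3.70 CPM in CD4 (SD, n = 6 and 3), a 6.65-fold rise (log2 fold change 2.73, SE 0.433, adjusted p 0.000331 in edgeR). The CD4 values rest on 21, 77 and 76 counts.

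Ccne2 (chr4:11191351-11204779, plus strand), cyclin E2, was at 59.2, 179, 77.2, 87.6, 91.7 and 64.5 CPM in lymphomas 34, 53, 56, 70, 72 and 86. CD4 levels were 16.9, 14.3 and 25.3 CPM. Lymphoma 53 again was the highest, far above the next lymphoma. The mean was 93.2 ± 44.0 CPM in lymphoma against 18.8 ± 5.77 CPM in CD4 (SD, n = 6 and 3), a 4.94-fold rise (log2 fold change 2.30, SE 0.376, adjusted p 0.000437 in edgeR). E cyclin transcripts summed to 134 ± 52.2 CPM in lymphoma and 24.9 ± 6.81 CPM in CD4.

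Ccne1 held 24.6% to 43.2% of E cyclin counts in lymphoma and 10.6% to 39.3% in CD4, so the ranges overlapped. The CD4 shares come from 196 to 352 counts, and that of CD4 1 had a Wilson 95% interval of 7.04 to 15.7%. The log2 ratio of Ccne1 to Ccne2 was -1.15 ± 0.469 (SD, n = 6) in lymphoma and -1.84 ± 1.21 (SD, n = 3) in CD4. Their difference of 0.69 did not pass an exact two-sided permutation test (p = 0.262, adjusted p = 0.262 over 3 ratios), and it ranged over the alternatives from 0.09 without CD4 1 to 1.30 without CD4 2.

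Cdk2 (chr10:128697939-128705031, minus strand), the kinase of cyclins E and A, rose as well. It was at 100.3, 90.8, 111, 106, 110.3 and 99.9 CPM in lymphomas 34, 53, 56, 70, 72 and 86. The 3 controls had 34.2, 41.4 and 28.3 CPM. The lymphomas lay close together, with an SD of 7.39% of their mean, the smallest among the 10 genes. The mean was 103 ± 7.61 CPM in lymphoma against 34.6 ± 6.58 CPM in CD4 (SD, n = 6 and 3), a 2.98-fold rise (log2 fold change 1.57, SE 0.172, adjusted p 2.24e-05 in edgeR).

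The cyclins of S phase and mitosis both rose, with the largest log2 fold changes among the 7 cyclins. Ccna2 (chr3:36564865-36572150, minus strand), cyclin A2, was at 83.7, 91.4, 83.0, 96.1, 96.5 and 112 CPM in lymphomas 34, 53, 56, 70, 72 and 86. Corresponding CD4 values were 7.54, 2.88 and 5.23 CPM. The mean was 93.8 ± 10.7 CPM in lymphoma against 5.22 ± 2.33 CPM in CD4 (SD, n = 6 and 3), a 17.8-fold rise (log2 fold change 4.16, SE 0.296, adjusted p 9.78e-07 in edgeR). Lymphoma 53 lay within the other lymphomas for this gene. Without CD4 1 the log2 fold change was 4.53, and without CD4 2 it was 3.88.

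Ccnb1 (chr13:100778650-100786570, minus strand), cyclin B1, was at 92.4, 76.3, 95.4, 68.9, 91.4 and 101 CPM in lymphomas 34, 53, 56, 70, 72 and 86. CD4 preparations 1, 2 and 3 gave 1.43, 7.32 and 4.50 CPM. The CD4 libraries held at most 61 counts of it. The mean was 87.5 ± 12.2 CPM in lymphoma against 4.42 ± 2.94 CPM in CD4 (SD, n = 6 and 3), a 20.0-fold rise (log2 fold change 4.32, SE 0.423, adjusted p 1.11e-05 in edgeR). Its value is uncertain in absolute terms, because 5 copies elsewhere in the genome share at least 95% of their bases with it over 300 bases or more. The copies that the table lists, Ccnb1-ps, Gm12856 and Gm4870, had at most 0, 5 and 16 counts in any library.

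**Figure D3:**
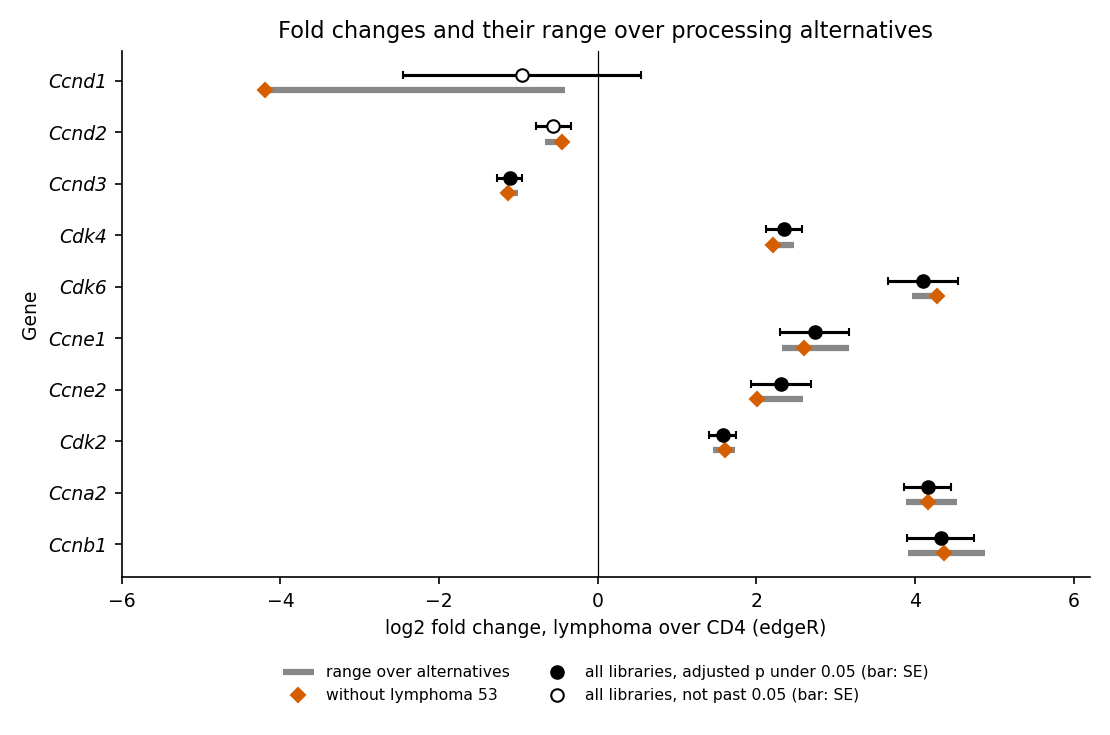
Log2 fold change, lymphoma over CD4, of each gene from all 9 libraries (circles, filled where the adjusted p is under 0.05, bars 1 SE), its range over the alternative analyses (grey) and its value without lymphoma 53 (diamond). The 7 rises and the fall of Ccnd3 keep their side of 0, while Ccnd1 runs to -4.19 without lymphoma 53. Ccnb1 runs from 3.91 without CD4 1 to 4.88 without CD4 2, and Ccne1 from 2.32 to 3.16 in the same fits.

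Among the 6 lymphomas the genes differed widely in their spread. Lymphoma 53 was the highest for Ccnd1, Cdk4, Ccne1 and Ccne2 and the lowest for Ccnd2, Cdk6 and Cdk2, and it lay inside the range of the others for Ccnd3, Ccna2 and Ccnb1. The SD as a percentage of the mean ran from 7.39% for Cdk2, 11.3% for Ccnd3 and 11.5% for Ccna2 up to 47.2% for Ccne2 and 219% for Ccnd1. Without lymphoma 53, the lymphoma mean of Ccnd1 was 2.18 ± 0.941 CPM (SD, n = 5) and that of Cdk6 was 1671 ± 301 CPM (SD, n = 5). Over all 6 lymphomas the SD of Cdk6 was 38.5% of its mean and that of Ccnb1 was 13.96%. On the log2 scale the SD of Cdk6 among the lymphomas was 0.80 with lymphoma 53 and 0.27 without it, and that of Ccnd1 was 2.43 with it and 0.73 without it.

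**Figure D4:**
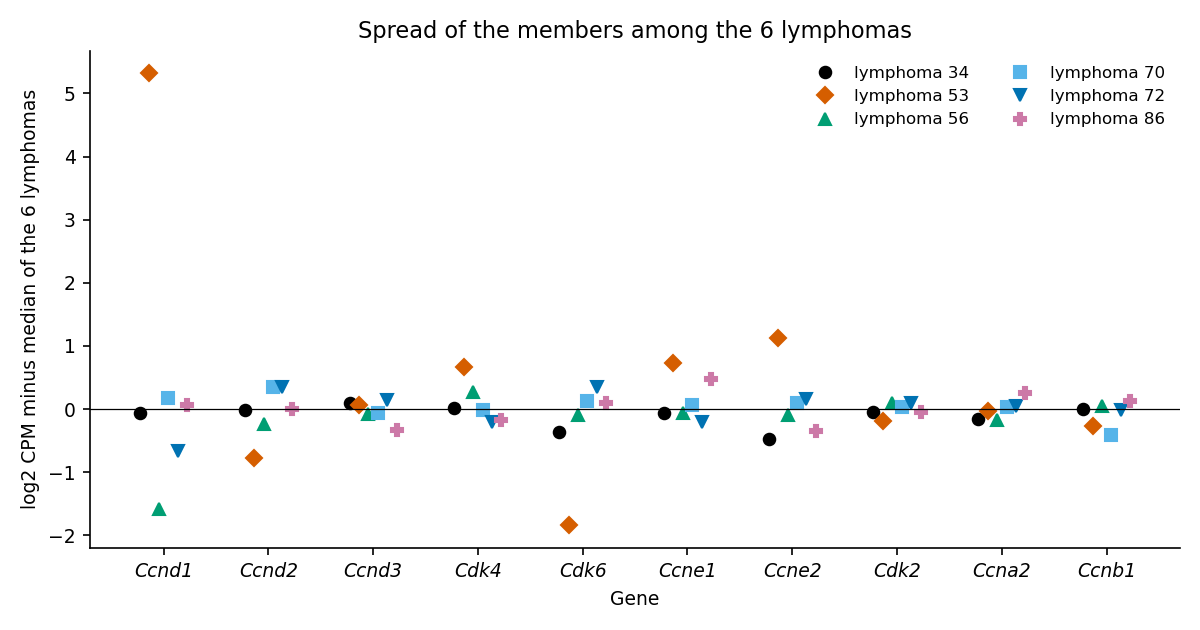
Each gene's log2 CPM in each of the 6 lymphomas, minus the median of the 6 (vertical axis, log2 units), with 1 symbol per tumour. Lymphoma 53 (diamond) lies far above the median for Ccnd1, above it for Ccne2, Ccne1 and Cdk4, and far below it for Cdk6.

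Genes with the most similar pattern were sought for the D and E cyclins among 9423 genes with an average log2 CPM of at least 3, by the root mean square difference of mean-centred log2 CPM over the 9 libraries. For Ccnd1 the closest were Itm2a (0.49 log2 units), Nsg2 (0.64) and Sdc4 (0.78). Itm2a was at 104 CPM in lymphoma 53, 1.70 to 4.04 CPM in the other lymphomas and 29.4 to 39.4 CPM in CD4. Nsg2 and Sdc4 were likewise high in lymphoma 53 alone among the lymphomas, at 209 and 60.8 CPM. For Ccnd2 the closest were Tor1aip1 (0.093), Uckl1 (0.104) and Gm15800 (0.110), and for Ccnd3 they were Taok1 (0.062), Tnrc18 (0.076) and Dopey1 (0.101). Ccne1 lay nearest to Cenpi (0.213), which encodes a centromere protein, followed by Mipep (0.251) and Zfp428 (0.258). Ccne2 lay nearest to Cmc2 (0.230), 2700038G22Rik (0.237) and Samd1 (0.240). These likenesses are descriptions over 9 libraries that share the group difference, and they carry no test.

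The partners of the 10 genes were counted next, by role, in lists set against the same background of 24.7% higher and 21.9% lower. Of the other cell cycle cyclins, kinases and CKS proteins, 6 of 8 tested rose and none fell, with a median log2 fold change of 3.19, and Ccna1 and Ccnb3 had no counts in any library. Cdk1, the mitotic kinase that cyclins A2 and B1 bind, was at 82.7 to 291 CPM in lymphoma and 9.60 to 28.2 CPM in CD4, a log2 fold change of 3.60 (SE 0.466, adjusted p 0.000100 in edgeR) that became 4.19 without CD4 1. Cks1b, a small protein that docks on these kinases, had a log2 fold change of 4.10, and Ccnb2, cyclin B2, one of 3.64. Ccnh, the cyclin of the kinase that activates other cyclin-dependent kinases, rose with 1.66, whereas its kinase Cdk7 was at 0.23 with an edgeR adjusted p of 0.369. Of the CDC25 phosphatases, which activate the kinases, and the WEE1 family, which restrains them, 4 of 5 rose and none fell (median 2.04). Cdc25c and Wee1 rose most in that list, with log2 fold changes of 3.72 and 3.63, from CD4 levels of 0.912 and 0.538 CPM.

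The inhibitors moved in both directions. Cdkn1b, which encodes p27, an inhibitor of Cdk2 complexes typical of resting T cells, fell from 344 ± 53.2 to 64.0 ± 12.4 CPM (SD, CD4 n = 3, lymphoma n = 6) (log2 fold change -2.43, SE 0.186, adjusted p 1.62e-06 in edgeR). Its values were 43.3 to 80.8 CPM in lymphoma and 303 to 404 CPM in CD4, without overlap. Of 6 tested inhibitors, 3 rose and 1 fell (median 1.80). Cdkn2a, which encodes p16 and p19Arf, rose from 0.850 ± 0.823 to 12.4 ± 4.27 CPM (log2 fold change 3.89, edgeR adjusted p 0.000294, and 5.02 without CD4 2). Counts were made per gene, so they do not tell its p16 and p19Arf transcripts apart. Cdkn2c, or p18, an inhibitor of Cdk4 and Cdk6, rose from 4.45 ± 2.70 to 23.9 ± 6.52 CPM (2.41, edgeR adjusted p 0.000517, and 3.04 without CD4 1). Cdkn1c, or p57, rose from 0.531 ± 0.464 to 3.43 ± 1.502 CPM (2.64, adjusted p 0.0235 in edgeR). That call was lost without CD4 3 (adjusted p 0.0515) and with lymphomas 34, 70 and 72 averaged (adjusted p 0.0540), and the adjusted p ran from 0.0014 to 0.0540 over the alternatives. Cdkn1a, which encodes p21, had a log2 fold change of 1.18 with an edgeR adjusted p of 0.142, which became 0.0455 without lymphoma 56 and ran up to 0.351 over the alternatives. Cdkn2d, another inhibitor of Cdk4 and Cdk6, had -0.69 with 0.108, and Cdkn2b did not pass the filter on low counts.

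Among the retinoblastoma family and the E2F and DP factors that it holds in check, 9 of 13 rose and 1 fell (median 1.63). E2f1, an activator of S phase genes, and E2f7, a repressor of them, rose most, with log2 fold changes of 3.42 and 3.18. Rbl2, which encodes the p130 protein of resting cells, fell by 1.23 on the log2 scale, and Rb1 itself had 0.19 with an edgeR adjusted p of 0.442. Of 20 G1/S genes, which are transcribed as cells enter S phase, 19 rose and none fell (median 2.90), and the exception was Slbp, at 0.82 with an edgeR adjusted p of 0.0800. Mcm10 and Cdc6, both needed to start DNA replication, rose most, with log2 fold changes of 4.94 (5.98 without CD4 2) and 4.54. In the list for cyclin turnover, 10 of 16 rose and 3 fell (median 0.84). Ube2c and Cdc20, parts of the machinery that degrades mitotic cyclins, rose most with 4.18 and 3.64, the latter 4.34 without CD4 1. Fbxo4, a ubiquitin ligase subunit for cyclin D1, fell by 1.18, and Usp28, a deubiquitinase, fell by 0.99. The call of Usp28 was lost without CD4 2 (adjusted p 0.0816), without CD4 3 (adjusted p 0.0944) and with lymphomas 34, 70 and 72 averaged (adjusted p 0.0726), with a range of 0.00122 to 0.0944 over the alternatives.

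Cyclins and kinases known mainly for acting on transcription served as a contrast in kind, although some may also act on the cell cycle. Of 12 such genes 1 rose and 6 fell, with a median log2 fold change of -0.46. Ccnl1, a cyclin linked to RNA splicing, fell by 1.20 and Ccnt2, a cyclin of the elongation kinase, fell by 0.89. Cdk9, the elongation kinase, was at 35.8 to 46.9 CPM in lymphoma and 24.0 to 30.2 CPM in CD4 (log2 fold change 0.61, adjusted p 0.0103 in edgeR), and this call was lost without CD4 2 (adjusted p 0.0504, range over the alternatives 0.00377 to 0.0504).

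**Figure D5:**
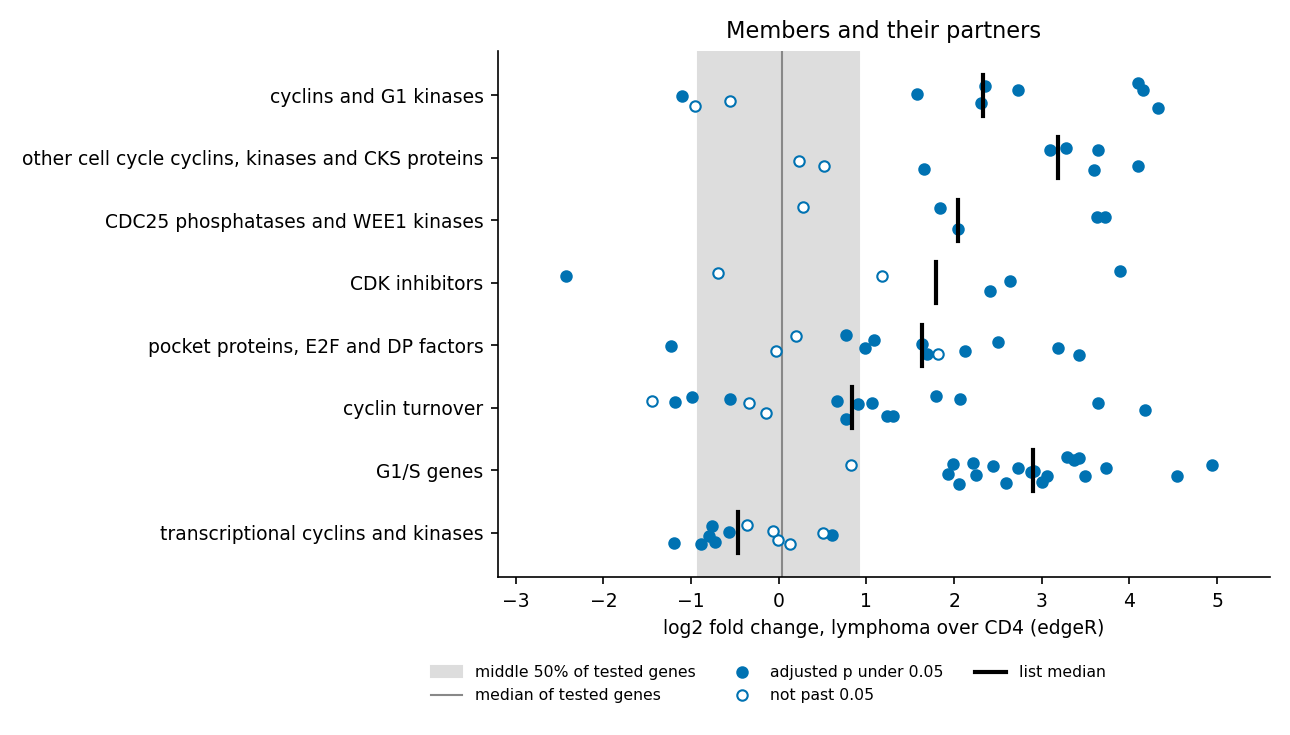
Log2 fold changes, lymphoma over CD4, of the 10 cyclins and G1 kinases and of 7 lists of partner genes, with filled points for an adjusted p under 0.05, a black bar for each list's median and a grey band from the lower to the upper quartile of all tested genes (-0.92 to 0.92). The medians run from -0.46 for transcriptional cyclins and kinases to 3.19 for the other cell cycle cyclins, kinases and CKS proteins.

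Several of the 10 genes share exon bases with a gene on the opposite strand, and the strand setting of the counting is not given in the sources used here. These neighbours are LTO1 for Ccnd1, Bysl for Ccnd3, Tspan31 for Cdk4, Ints8 for Ccne2, Pmel for Cdk2, Exosc9 for Ccna2, and antisense transcripts for Ccnd2 and Cdk6. Reads from the overlapping stretches could belong to either gene, and reads left ambiguous between genes are in no gene's count. Over the whole table, ambiguous reads averaged 4.12% of lymphoma reads and 5.43% of CD4 reads. The largest count of such a neighbour in any library was 524, for Bysl, and Ccnd3 itself had 447 to 930 counts. LTO1 reached 234 counts, and Ccnd1 had 11 to 50 in lymphomas 34, 56, 70, 72 and 86. The part of such reads in the fold changes was not tested.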

How the data were processed

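Transcript 3′ ends of 6 lymphoma and 3 CD4 libraries were sequenced. The authors deposited raw read counts per Ensembl gene, whole numbers with no normalization. Per the submitters' processing notes, FastQC, HISAT2, SAMtools and HTSeq were used with mm10/GRCm38; versions, annotation release and strand setting are not given in the sources used here. The 5 closing summary rows (reads in no gene) were left out of library sizes; gene counts were 44.0% ± 3.29 of lymphoma reads and 31.1% ± 3.69 of CD4 reads (SD, n = 6 and 3). Columns without a matching sample numbered 0. Reads aligned to several places (17.8% and 12.8%) are in no gene's count.

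Group differences were fitted on the deposited counts in edgeR 4.0.16 under R 4.3.3 (filterByExpr, minimum count 10, TMM, robust glmQLFit and glmQLFTest, no covariate, all 9 libraries), with Benjamini-Hochberg adjustment over 15401 genes, and the procedure was tested on simulated data. SE is the absolute log2 fold change over the square root of F, and 2 was the prior count for log2 CPM. Ratios of 2 genes within a library added 0.5 to each count and were compared by exact permutation (scipy 1.17.1). Wilson 95% intervals and the floor of 3 counts cover counting error only, since no molecular identifiers mark independent molecules. Coordinates, overlaps and copies (blastn 2.17.0, at least 95% identity over 300 bases) came from GENCODE M21 (GRCm38), which may differ from the authors' annotation.

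The members and lists were chosen with earlier results of these data known. Named genes were the 10 members, the inhibitors and Cdk1, the 2 largest called rises and falls of each list, the 3 nearest patterns of each D and E cyclin, and Mycn, Xist and Ddx3y as checks; genes named besides these (Ccnh, Cdk7, Rb1, Slbp, the Trbv segment and individual markers of cell types) were chosen after their values were seen. Alternatives were other scalings (RLE, upper quartile, library size), other filters, DESeq2 1.42.0, limma voom 3.58.1, leaving out each library, and averaging lymphomas 34, 70 and 72.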

Additional observations from a re-analysis of the deposited data

Results flagged for a closer look

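Among the 6 lymphomas, 16 results were examined for a library far from the others, and 5 had one. A gap to the nearest library above 0.625 of the whole range, Dixon's 95% critical value for 6 values, was taken as far. For normally spread values chance gives about 1 in 20, or 0.8 of 16, but CPM and shares need not be spread so. The share of all tested genes with such a gap was not computed. The share of Cdk6 in Cdk4 and Cdk6 counts was not among the 16 results. It was 60.9% in lymphoma 53 and 87.2% to 92.8% in the other lymphomas, so the count of 5 depends on which results were examined. Lymphoma 53 was the highest or the lowest lymphoma at 61.8% of tested genes, so such gaps need not be particular to these genes. In each of the 5 the far library was lymphoma 53, and the 5 are not independent, since all come from that library and 3 of them rest on Ccnd1 or Ccnd2 counts. Its Ccnd1 was at 113.6 CPM where the next lymphoma was at 3.06 CPM, and its Ccne2 was at 179.3 CPM where the next was at 91.7 CPM. The log2 ratio of Cdk6 to Cdk4 was 0.64 where the next was 2.77. Ccnd1 made up 17.5% of its D cyclin counts where the next lymphoma had 0.319%, and Ccnd2 made up 76.1% where the next had 94.8%.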

How the results depend on the processing

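The 7 members called higher were 7 in all 17 alternatives. The count of members called lower, 1, became 2 with RLE scaling, upper quartile scaling, library size alone, at least 10 counts in every library, DESeq2, and lymphomas 34, 70 and 72 averaged, and 3 with limma voom. Leaving out 1 library gave 1 to 3 members lower, with 3 without lymphoma 53 and 2 without lymphoma 72. DESeq2 gave no adjusted p for Ccnd1. Genes called over the whole table numbered 5574 to 8137 against 7174. With at least 10 counts in every library, 2 CDC25 and WEE1 genes and 1 CDK inhibitor were higher, because fewer genes were tested. Without 1 library, turnover genes called lower numbered 1 to 4 (1 without CD4 2) and transcriptional genes called higher 0 to 2 (0 without CD4 2, 2 without lymphoma 70); the latter were also 2 with the 3 lymphomas averaged. The cause was not tested. No ratio, count of members or named gene followed over the alternatives reversed its direction. Ccnh, Cdk7, Rb1, Slbp, Mycn, Xist, Ddx3y and the cell type markers were not followed there. Genes called higher, 3798 against 3376 lower, became 3414 against 3707 with upper quartile scaling and 3435 against 3782 with limma voom. Upper quartile scaling moved the median log2 fold change of all genes by -0.10, from 0.04 to -0.06, and no filter moved it to 0.20 over 24845 genes. Ratio tests without a CD4 library or with averaged lymphomas cannot reach an adjusted p of 0.05, and those without a lymphoma can only if all 3 ratios are at the smallest p. No paired analysis was possible because the groups share no replicate numbers. Depth limits Ccne1, Ccna2 and Ccnb1 in CD4, where libraries held under 100 counts, Ccnd1 in the 5 lymphomas with 11 to 50 counts, and Mycn. It also limits partner genes with few counts in CD4. Among these, the largest CD4 count was 9 for Cdkn1c and Wee1, 10 for Cdc25c and 15 for Cdkn2a. It was 37 for E2f7, 49 for Mcm10, 53 for E2f1, 61 for Cdc6, 72 for Cdc20 and 79 for Cdkn2c.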
